A study of Mus musculus with 3 samples.

Results

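Amino acid transporters were studied in 3 cell fractions of mouse epididymal fat: stromal vascular cells (SVC), small proliferative adipocytes (SPA) and mature white adipocytes (MWA). The set holds every gene that the arrays name in the solute carrier families Slc1, Slc6, Slc7, Slc36, Slc38 and Slc43, except 2 genes of these families that were left out. These were 56 of 37074 genes, read by 101 of 56605 probes. Apart from the 2 left out, the genes were chosen by name with no cut on measured values, though earlier results of these data were known.

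Fat of C57/BL males aged 20 weeks was digested with collagenase and spun at 9 xg for 1 s, and the lower phase gave SVC. The floating cells were spun again at 226 xg for 3 min, which left MWA, labelled MA in the sample records, on top and SPA as the sediment. SVC and SPA were cultured in DMEM to 90% confluence before RNA was taken, whereas no culture is described for MWA. Cell type and culture therefore cannot be told apart when MWA is set against SVC or SPA, and neither can the date in the sample titles, which differs for MWA. Cy3-labelled cRNA from 50 ng of total RNA of each fraction was hybridized to 1 Agilent array, so no difference below has a replicate check and no test could be made.

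Cells take up, release and exchange amino acids through these carriers. Slc1 proteins carry acidic or small neutral amino acids with sodium, Slc6 proteins carry neurotransmitters, glycine, taurine, betaine and creatine with sodium and chloride, and many Slc7 proteins are exchangers that reach the cell surface bound to a heavy chain. Slc38 proteins (SNATs) carry glutamine and other neutral amino acids with sodium, Slc36 proteins (PATs) carry small amino acids with protons, and Slc43 proteins include sodium-independent carriers of large neutral amino acids. White adipocytes use amino acids for protein and lipid synthesis and release glutamine and alanine, and amino acid supply is sensed by the kinase complex mTORC1 and by the transcription factor ATF4.

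The promoters of 4 genes are shown for these reasons: Slc7a10 had the largest ratio of MWA over SPA, Slc6a13 and Slc6a12 are neighbours with opposite ratios, and Slc38a5 was among the genes higher in MWA and holds 1 of the motifs searched. Each is the 250 bases before a RefSeq transcription start on the plus strand of GRCm38.p6, 5′ to 3′, and capitals mark a C/EBP motif. The windows are chr7:35186135-35186384 for Slc7a10, chr6:121300038-121300287 for Slc6a13, chr6:121342324-121342573 for Slc6a12 and chrX:8271131-8271380 for Slc38a5. For Slc6a13 and Slc6a12 the most upstream listed start was taken.
Slc7a10: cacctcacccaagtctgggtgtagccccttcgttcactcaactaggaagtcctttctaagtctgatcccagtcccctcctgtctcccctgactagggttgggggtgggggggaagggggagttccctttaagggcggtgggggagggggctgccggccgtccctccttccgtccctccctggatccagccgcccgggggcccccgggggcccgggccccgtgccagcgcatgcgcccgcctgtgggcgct
Slc6a13: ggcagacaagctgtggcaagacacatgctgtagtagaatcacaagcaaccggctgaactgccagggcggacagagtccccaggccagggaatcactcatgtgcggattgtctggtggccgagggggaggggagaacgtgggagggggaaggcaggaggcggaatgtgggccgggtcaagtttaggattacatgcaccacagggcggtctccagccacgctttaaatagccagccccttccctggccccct
Slc6a12: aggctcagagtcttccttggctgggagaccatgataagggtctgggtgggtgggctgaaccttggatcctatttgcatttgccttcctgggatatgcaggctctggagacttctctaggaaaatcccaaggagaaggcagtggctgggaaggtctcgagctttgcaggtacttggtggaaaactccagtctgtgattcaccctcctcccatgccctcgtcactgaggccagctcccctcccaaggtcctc
Slc38a5: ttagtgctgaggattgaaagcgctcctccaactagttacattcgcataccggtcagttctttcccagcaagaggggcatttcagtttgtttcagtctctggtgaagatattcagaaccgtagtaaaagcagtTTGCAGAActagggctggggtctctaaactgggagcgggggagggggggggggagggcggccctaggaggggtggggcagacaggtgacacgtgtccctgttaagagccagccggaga
The GC content of the Slc7a10 window was 69.6%, that of Slc6a13 60.8%, that of Slc6a12 55.6% and that of Slc38a5 55.2%. Both strands of the windows were searched for the ATF4 element CARE (TGATGNAA), for a C/EBP motif (TTGCNNAA) and for DR1, the direct repeat bound by PPAR. RefSeq promoters were at hand for 39 of the 56 genes, with 60 starts. The CARE letters were in 2 of 60 windows, both of Slc7a7, against 3.45% of all 32851 promoters. The C/EBP letters were in 6 of 60, against 9.56% of all, and lay in Slc1a2, Slc36a1, Slc38a5, Slc6a17, Slc6a9 and Slc7a7. DR1 was in 0 of 60, against 0.338% of all. These shares are close to those of all promoters, so nothing particular to the transporters was found in these windows.

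The arrays carry 60-base probes, and 3 probes are shown because their bases lie apart in the genome, so that each reads RNA after splicing. In mm9, the build of the array annotation, the Slc6a6 probe spans 503 bases at chr6:91699793-91700295 on the plus strand, the Slc38a1 probe 1292 bases at chr15:96416032-96417323 on the minus strand, and the Slc43a1 probe 1711 bases at chr2:84692915-84694625 on the plus strand.
Slc6a6: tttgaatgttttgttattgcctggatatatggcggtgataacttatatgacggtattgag
Slc38a1: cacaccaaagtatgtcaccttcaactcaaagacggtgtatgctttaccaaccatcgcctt
Slc43a1: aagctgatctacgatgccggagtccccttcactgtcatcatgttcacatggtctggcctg
No base is in capitals, since the place of the exon junction in each probe was not looked up here.

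A level below is the log2 of the processed signal of a probe over the 75th percentile of its own array, so 0 stands for that percentile and a difference of 1 for a 2-fold change in signal. Where a gene had several probes, the one with the highest level on average was taken. A fold of 5, the limit used for these arrays in the study, and a fold of 2 were applied. Where a probe was not well above background on the dimmer array, its fold is a lower bound and is written as "at least". Levels are not compared between genes, because probes differ in brightness.

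Signal well above background was found on all 3 arrays for 34 of the 56 genes, on some for 12 and on none for 10. Of all 37074 genes, 19865 were well above background on all 3 arrays and 12885 on none. The numbers on each array were similar, with 39 genes in SVC, 41 in SPA and 41 in MWA. In MWA alone 5 genes were well above background, which were Slc1a1, Slc38a3, Slc36a3, Slc6a7 and Slc7a9. Among the 46 genes seen on any array, the highest level lay in SVC for 11, in SPA for 16 and in MWA for 19. The 10 genes at background were Slc38a11, Slc6a2, Slc6a3, Slc6a5, Slc6a11, Slc6a14, Slc6a18, Slc6a19, Slc7a12 and Slc7a13, among them the carriers of noradrenaline (Slc6a2) and dopamine (Slc6a3) of nerve endings and the neutral amino acid carrier of gut and kidney (Slc6a19).

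**Figure D1:**
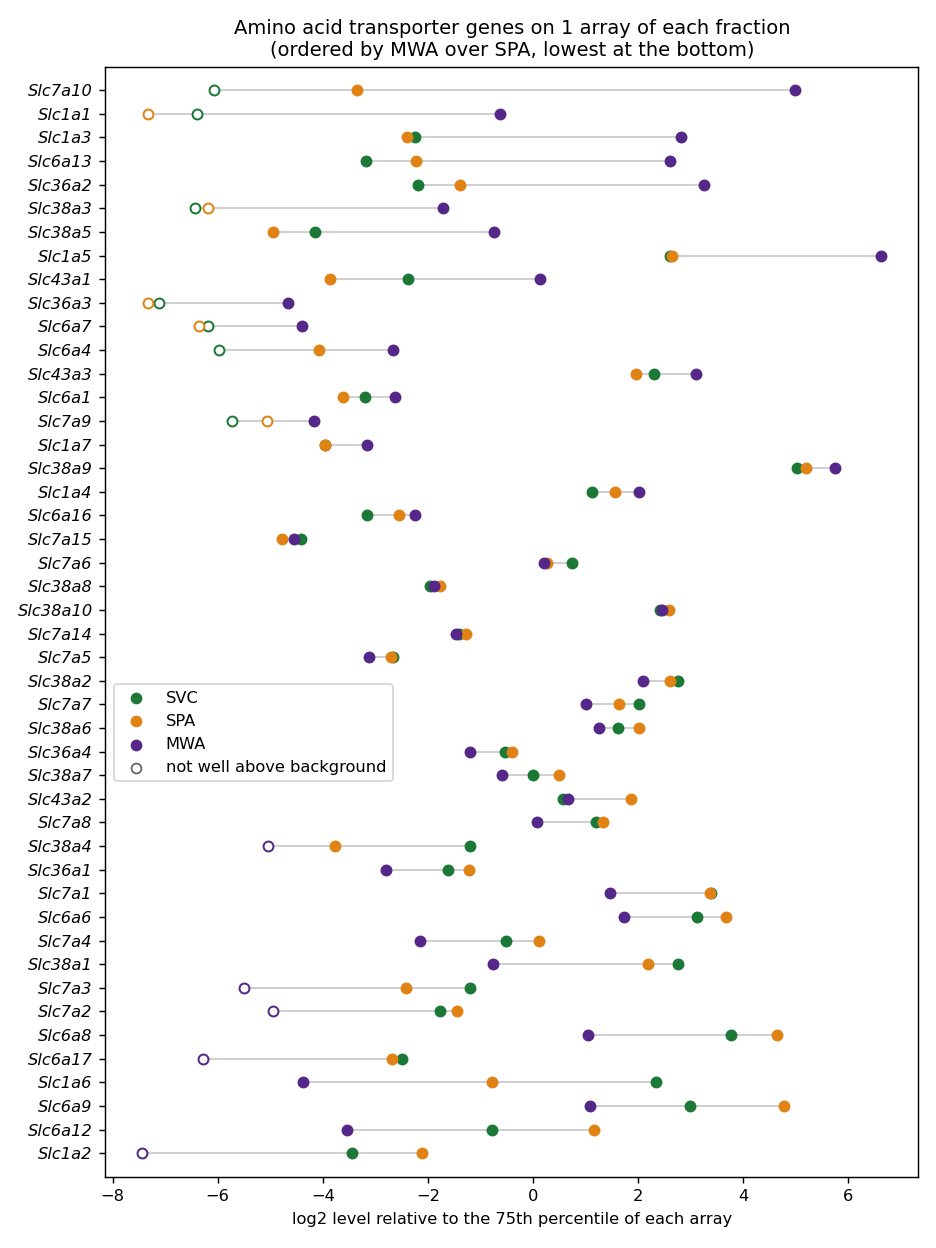
Level of each transporter gene well above background on at least 1 array, as log2 of the signal over the 75th percentile of its array, with 1 point for each of SVC, SPA and MWA and open points where the probe was not well above background. Genes are ordered by MWA over SPA: SVC and SPA lie close together for most genes, while the MWA point lies to the right of the SPA point at the top, at 4.98 for Slc7a10 and 6.63 for Slc1a5, and to its left at the bottom.

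The fractions were compared with all genes as background. Between MWA and SPA, 9 transporters were at least 5-fold higher in MWA, against 5.49% of all 23957 genes with a ratio, and 9 were at least 5-fold lower, against 3.98% of all genes. These were 9 and 9 of 46 transporters with a ratio, and 7 of the higher and 5 of the lower genes were measured on both arrays. At 2-fold, 11 were higher, against 15.8% of all genes, and 17 were lower, against 17.9%. The ratios spread widely around no shift: the log2 ratios of MWA to SPA had a median of -0.16 over the 36 transporters measured on both arrays and of -0.08 over all such genes, whereas their median size was 1.23 and 0.62.

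**Figure D2:**
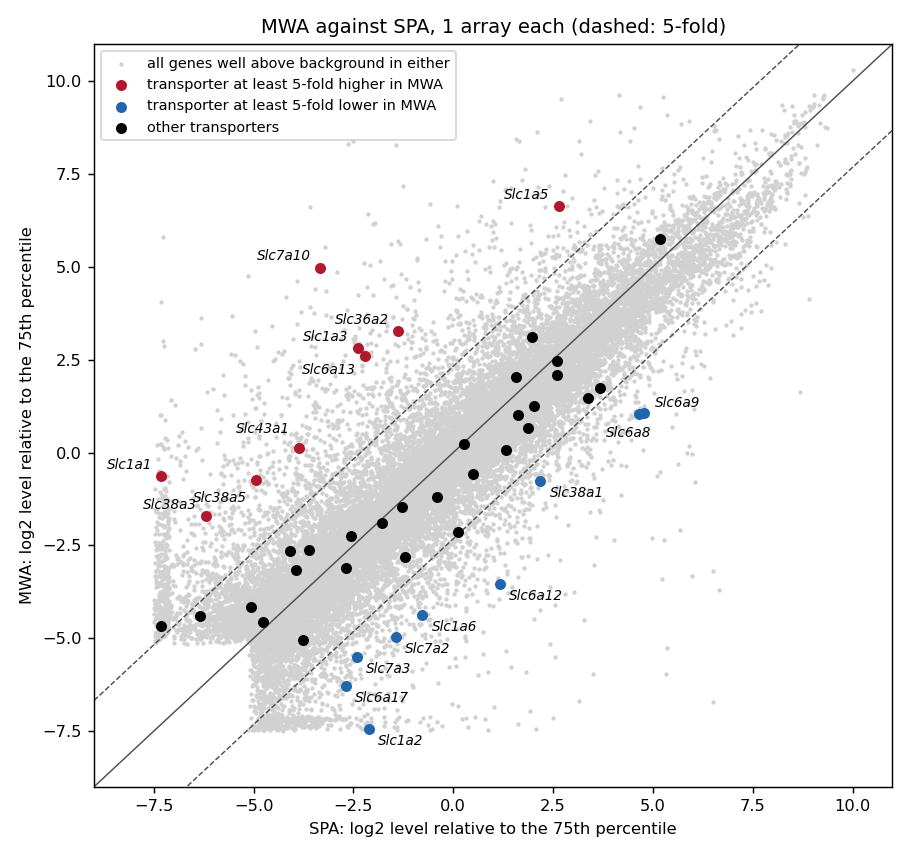
Level in MWA (vertical) against level in SPA (horizontal), both as log2 of the signal over the 75th percentile of the array, for transporters (coloured or black) and all other genes well above background on either array (grey). The 9 red genes lie at least 5-fold above equality and the 9 blue ones at least 5-fold below it, dim genes being placed at their own signal and called by their bound.

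Glutamate carriers went both ways. Slc1a3 (GLAST), a high-affinity glutamate carrier best known from glia, had levels of -2.25 in SVC, -2.40 in SPA and 2.82 in MWA. It was 37.2-fold higher in MWA than SPA, and the SVC and SPA levels lay close together. A second probe of Slc1a3 gave a log2 ratio of 4.24 against 5.22 for the probe read. Slc1a1 (EAAT3), which carries glutamate and cysteine, was well above background in MWA alone, at -0.63. It was at least 22.6-fold higher in MWA than SPA, and its second probe gave a log2 bound of 4.04 against 4.50.

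Slc1a6 and Slc1a2 were lower in MWA. Slc1a6 (EAAT4), best known from Purkinje cells, stood at 2.34 in SVC, -0.77 in SPA and -4.38 in MWA, a stepwise order that no other transporter showed at 5-fold in both steps. It was lower 8.62-fold in SPA than SVC and 12.2-fold in MWA than SPA. Slc1a2 (GLT-1), the main glutamate carrier of astrocytes, stood at -3.44 in SVC and -2.11 in SPA and was not well above background in MWA. It was at least 8.24-fold lower in MWA than SPA. Slc1a7 stood at -3.95, -3.95 and -3.17 in SVC, SPA and MWA, and passed neither fold.

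The neutral amino acid exchangers of the same family were both highest in MWA. Slc1a5 (ASCT2), an exchanger that takes up glutamine, stood at 2.60 in SVC, 2.64 in SPA and 6.63 in MWA. It was 15.9-fold higher in MWA than SPA, while SPA and SVC differed 1.03-fold. Slc1a4 (ASCT1), which exchanges alanine, serine and cysteine, stood at 1.12, 1.57 and 2.02 and was 1.37-fold higher in MWA than SPA.

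Slc7a10 (Asc-1), an exchanger of small neutral amino acids known as a surface marker of white adipocytes, had the largest ratio in the set. Its probe at chr7:35985868-35985927 (mm9) gave no signal well above background in SVC, and stood at -3.35 in SPA and 4.98 in MWA. The gene was 321-fold higher in MWA than SPA, and at least 3.04-fold higher in SPA than SVC. A second probe of Slc7a10, which has no RefSeq accession in the array annotation, gave a log2 ratio of 0.28 for MWA over SPA against 8.33. The local background of that probe was outlying on all 3 arrays. Slc7a10 was also among the genes that the study listed from these same arrays as more than 5-fold higher in SPA than SVC. Its values are therefore the same measurement and not independent of that list.

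The other partners of the heavy chains differed little or were lower in MWA. Slc7a5 (LAT1), which carries leucine and other large amino acids, stood at -2.66, -2.69 and -3.12 in SVC, SPA and MWA. Slc7a8 (LAT2), a related exchanger, stood at 1.20, 1.32 and 0.07 and was 2.38-fold lower in MWA than SPA. Slc7a7 and Slc7a6, the y+LAT exchangers of cationic for neutral amino acids, were 1.54-fold and 1.03-fold lower. Of the 9 genes of this class on the arrays, 7 had a ratio, and Slc7a10 was the only one past 5-fold. The heavy chain Slc3a2 (4F2hc) itself stood at 5.01, 6.27 and 5.13, so SPA was the highest, 2.41-fold over SVC and 2.21-fold over MWA. The heavy chain Slc3a1 (rBAT) was not well above background on any array.

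The cationic amino acid carriers, which take up arginine, lysine and ornithine, were lower in MWA, or within 2-fold of SPA. Of the 5 genes of this class, 4 were lower in MWA than SPA by 2-fold or more, against 17.9% of all genes, and 0 were higher, against 15.8%. Slc7a1 (CAT1), the widely expressed member, stood at 3.40, 3.37 and 1.47 in SVC, SPA and MWA and was 3.71-fold lower in MWA than SPA. Slc7a2 (CAT2), which supplies arginine to activated macrophages among other cells, stood at -1.77 in SVC and -1.44 in SPA and was not well above background in MWA. It was at least 11.4-fold lower in MWA than SPA. Slc7a3 (CAT3) stood at -1.20 in SVC and -2.41 in SPA, was not well above background in MWA, and was at least 6.67-fold lower there than in SPA. Slc7a4, a related protein, stood at -0.51, 0.12 and -2.15 and was 4.82-fold lower in MWA than SPA, just short of the 5-fold limit. Slc7a14, a lysosomal member, stood at -1.41, -1.28 and -1.47.

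Of the Slc6 carriers past 5-fold, 4 were lower in MWA than SPA and 1 was higher. The creatine carrier Slc6a8 stood at 3.77 in SVC, 4.65 in SPA and 1.05 in MWA. It was 12.1-fold lower in MWA than SPA, and a second probe gave a log2 ratio of -4.67 against -3.60. The glycine carrier Slc6a9 (GlyT1) stood at 2.99, 4.77 and 1.08 and was 12.9-fold lower in MWA than SPA. Slc6a12 (BGT1), which carries betaine and GABA and is known for its part in osmotic balance, stood at -0.78, 1.16 and -3.54 and was 26.1-fold lower in MWA than SPA. For all of these 3 genes SPA was the highest array and MWA the lowest.

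Slc6a13 (GAT2), a carrier of GABA and taurine, was the Slc6 gene higher in MWA. It stood at -3.18 in SVC, -2.22 in SPA and 2.61 in MWA, which made it 28.5-fold higher in MWA than SPA. Slc6a17, a vesicular carrier of neutral amino acids in neurons, stood at -2.49 and -2.69 in SVC and SPA and was not well above background in MWA. It was at least 5.51-fold lower in MWA than SPA, while a second probe gave a log2 ratio, or its bound, of -0.37. The taurine carrier Slc6a6 (TauT) stood at 3.12, 3.67 and 1.74 and was 3.82-fold lower in MWA than SPA, and its junction probe printed above gave a log2 ratio of -2.05 against -1.93. The serotonin carrier Slc6a4 (SERT) was not well above background in SVC, stood at -4.08 in SPA and -2.66 in MWA, and was 2.68-fold higher in MWA than SPA.

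The glutamine carriers of the Slc38 family split. Slc38a5 (SNAT5) stood at -4.15, -4.95 and -0.74 in SVC, SPA and MWA and was 18.5-fold higher in MWA than SPA. Slc38a3 (SNAT3), a glutamine carrier of liver, kidney and brain, was well above background in MWA alone, at -1.72, and was at least 10.7-fold higher there than in SPA. Both of these are known as system N carriers, which can work in either direction. Slc38a1 (SNAT1), a system A carrier that concentrates glutamine in cells, stood at 2.77, 2.18 and -0.76 and was 7.69-fold lower in MWA than SPA. All 4 probes of Slc38a1 were lower in MWA, with log2 ratios of -2.94, -2.65 and -1.91 and, at the junction probe printed above, a bound of -1.38.

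The widely expressed system A carrier Slc38a2 (SNAT2), which cells induce when amino acids are short, stood at 2.76, 2.60 and 2.09 and was 1.42-fold lower in MWA than SPA. Slc38a10 stood at 2.41, 2.59 and 2.46, with a log2 ratio of MWA over SPA of -0.13. Slc38a9, an arginine sensor of the lysosome that signals to mTORC1, stood at 5.02, 5.19 and 5.74 at a probe with no RefSeq accession. Its probe with a RefSeq accession stood at -0.22, 0.18 and -0.78, so the log2 ratio of MWA over SPA was 0.55 at the first and -0.96 at the second, and no direction can be given for this gene.

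Of the proton-coupled carriers, Slc36a2 (PAT2), which carries glycine, alanine and proline and is known as a surface protein of brown and beige adipocytes, stood at -2.19, -1.38 and 3.26. It was 25.0-fold higher in MWA than SPA, and its other probes gave log2 ratios of 2.59 and 2.56 against 4.64. Slc36a1 (PAT1), a lysosomal carrier, stood at -1.62, -1.21 and -2.80 and was 3.01-fold lower in MWA than SPA. Slc36a4 was 1.75-fold lower, and Slc36a3 was near the limit of detection in MWA alone.

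Of the Slc43 carriers, Slc43a1 (LAT3), which moves branched-chain amino acids and phenylalanine, stood at -2.39, -3.86 and 0.13 and was 15.9-fold higher in MWA than SPA. Its junction probe printed above stood at -4.36, -3.74 and -3.16 and gave a log2 ratio of 0.58 against 3.99. The size of the Slc43a1 difference therefore rests on 1 of 2 probes, both with RefSeq accessions. Slc43a2 (LAT4), a carrier of the same amino acids, stood at 0.58, 1.87 and 0.67 and was 2.29-fold lower in MWA than SPA. Slc43a3, a purine base carrier despite its family, stood at 2.30, 1.97 and 3.11 and was 2.20-fold higher in MWA than SPA.

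The normexp setting added an offset of 50 to every signal. Such an offset by itself shrinks the ratios of dim probes, so this setting cannot decide whether their calls hold. With the normexp correction, the log2 ratio between MWA and SPA became -1.77 for Slc1a6 and 2.12 for Slc38a5, both short of 5-fold. The log2 bound became -1.19 for Slc1a2, -1.43 for Slc7a2, -0.81 for Slc7a3, -0.74 for Slc6a17 and 1.56 for Slc38a3. Each kept its direction, but a bound short of 5-fold leaves unknown whether the ratio itself passed it. With a median taken over the probes of each gene, Slc43a1 at 2.29 kept its direction and fell short of 5-fold. So did Slc38a1 at -2.28 and Slc6a17 at -1.42, whose medians include a bound. The calls of Slc7a10, Slc1a1, Slc1a3, Slc1a5, Slc6a13, Slc36a2, Slc6a8, Slc6a9 and Slc6a12 stood in every alternative that gave a value.

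Several transporters lie near each other in the genome. With probes within 500 kb of each other, 11 pairs of neighbours within the set were found over 19 genes. Other genes that may lie between them were not looked for. In 8 pairs both genes had a ratio of MWA over SPA, or its bound. The sign was the same in 6 of these 8 pairs and opposite in 2, and no such share was taken over all genes. The clearest contrast was on chromosome 6, where the probes of Slc6a13 and Slc6a12 lie 27.9 kb apart on the same strand (mm9), with log2 ratios of 4.83 and -4.71. The other opposite pair was Slc36a2 and Slc36a1 on chromosome 11, with probes 77.3 kb apart on opposite strands and log2 ratios of 4.64 and -1.59. Slc43a1 and Slc43a3 on chromosome 2, 94.3 kb apart, were both higher in MWA, at 3.99 and 1.14, and Slc38a1 and Slc38a2 on chromosome 15, 111.6 kb apart, were both lower, at -2.94 and -0.51.

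SPA and SVC were much closer to each other than either was to MWA. Of 41 transporters with a ratio, 0 were higher in SPA than SVC by 5-fold or more, against 0.322% of all 22664 genes, and 2 were at least 5-fold lower, against 0.353%. Slc7a10 has only a bound here, at least 3.04-fold higher, which leaves unknown whether it passed 5-fold. The median size of the log2 ratio of SPA over SVC was 0.43 over the 39 transporters measured on both arrays and 0.23 over all such genes. The 2 lower genes were Slc1a6, described above, and Slc38a4 (SNAT4), an imprinted system A carrier best known from liver and placenta. Slc38a4 stood at -1.19 in SVC and -3.76 in SPA and was not well above background in MWA, so it was 5.93-fold lower in SPA than SVC. Its log2 ratio of SPA over SVC was -2.57, and -1.41 with the normexp correction, which is short of 5-fold. The median of its probes, which includes a bound, was -1.67, also short of 5-fold.

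At 2-fold, 5 transporters were higher in SPA than SVC, against 3.9% of all genes, and 4 were lower, against 3.25%. The higher genes were Slc6a12 at 3.84-fold, Slc6a9 at 3.44-fold, Slc1a2 at 2.51-fold, Slc43a2 at 2.44-fold and Slc7a10 at at least 3.04-fold. The lower genes were Slc1a6, Slc38a4, Slc43a1 at 2.78-fold and Slc7a3 at 2.31-fold. At the second, junction probe of Slc43a1 the log2 ratio of SPA over SVC was 0.62 against -1.47, so the direction of this gene between SPA and SVC depended on the probe. Of the 3 probes of Slc43a2 all were higher in SPA, with log2 ratios of 1.29, 1.39 and 0.98.

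**Figure D3:**
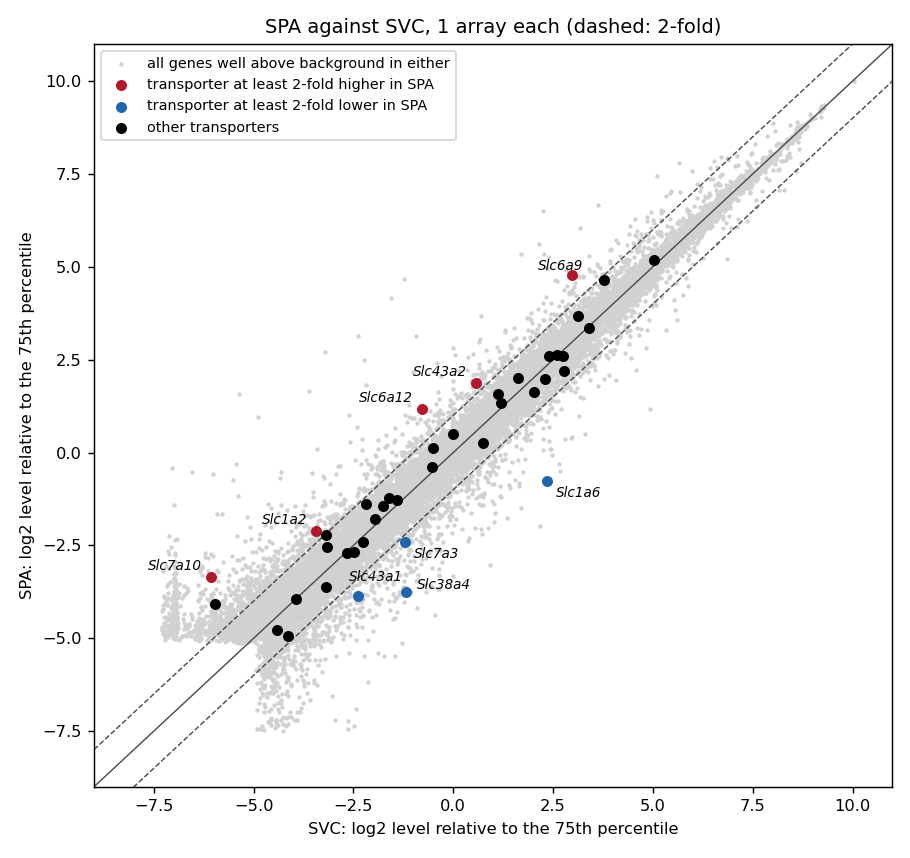
Level in SPA (vertical) against level in SVC (horizontal), both as log2 of the signal over the 75th percentile of the array, for transporters (coloured or black) and all other genes well above background on either array (grey). Most transporters lie inside the dashed 2-fold lines, while 5 were called higher in SPA and 4 lower, Slc1a6 being 8.62-fold lower. Dim genes are placed at their own signal and called by their bound, so Slc6a4 lies above the upper line without being called.

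A small group peaked in SPA. At least 2-fold higher in SPA than on both other arrays were 4 of 46 transporters, Slc1a2, Slc43a2, Slc6a12 and Slc6a9, against 1.95% of 24189 genes. At 5-fold there were 0, against 0.124%. In SVC, 3 transporters peaked at 2-fold, Slc1a6, Slc38a4 and Slc7a3, against 1.73% of genes, and the first 2 of them also at 5-fold, against 0.165%. In MWA, 9 peaked at 5-fold over both cultured fractions, against 4.63%, and these were all 9 genes that were higher in MWA than SPA.

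MWA set directly against SVC gave 9 transporters at least 5-fold higher, against 5.74% of all 23454 genes, and 8 at least 5-fold lower, against 3.97%. At 2-fold, 10 were higher, against 17.3%, and 16 lower, against 18%. This comparison shares its arrays with the other comparisons. The lower genes included Slc1a6 at 105-fold, Slc7a3 at at least 15.4-fold, Slc38a4 at at least 14.4-fold and Slc38a1 at 11.5-fold. The higher genes included Slc7a10 at at least 976-fold, Slc6a13 at 55.3-fold and Slc36a2 at 43.8-fold.

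Genes with several probes showed how far a single value can be taken. For MWA over SPA, 17 transporters had 2 or more probes measured on both arrays, the sign was the same at all probes of 14, and the probes of 10 lay within 1 log2 unit. The median spread was 0.97 log2 units, and the widest was 8.04, at Slc7a10. For SPA over SVC the median spread was 0.34 and the widest 2.09, at Slc43a1, and the sign was the same in 11 of 17 genes.

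**Figure D4:**
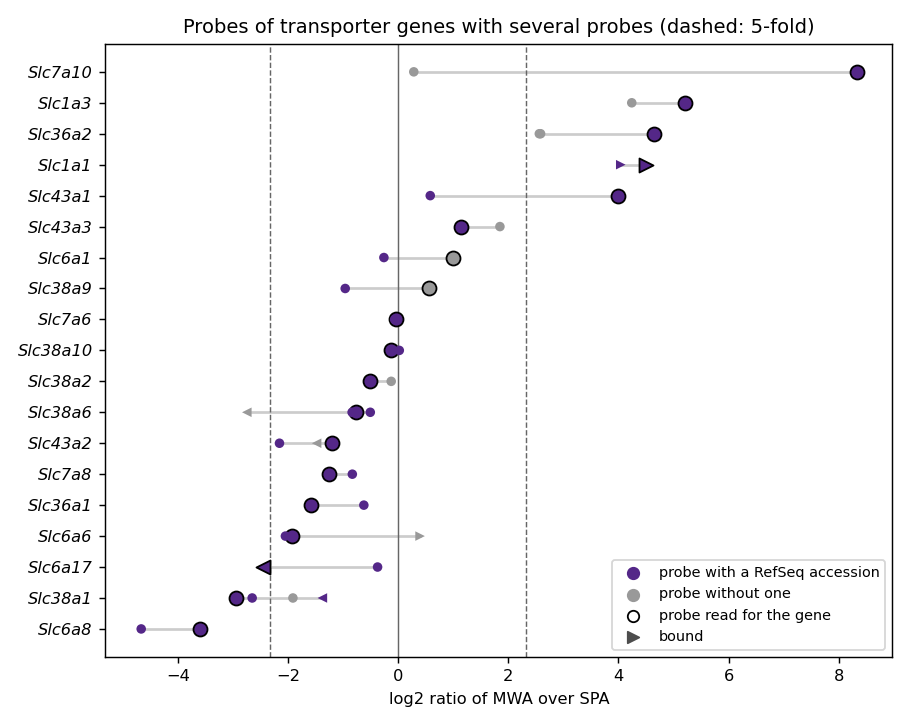
Log2 ratio of MWA over SPA at every probe of the transporter genes with several probes, with large outlined symbols for the probe read, triangles for bounds and grey symbols for probes without a RefSeq accession. The probes of Slc1a3, Slc1a1, Slc36a2, Slc38a1 and Slc6a8 keep to 1 side of 0, while those of Slc7a10 run from 0.28 to 8.33 and those of Slc43a1 from 0.58 to 3.99.

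Enzymes that use what the transporters carry differed in both directions. Of 20 genes of glutamine, glutamate, serine and related amino acid metabolism with a ratio, 6 were higher in MWA than SPA by 5-fold or more, against 5.49% of all genes, and 2 were lower, against 3.98%. Gpt, the transaminase of alanine, was 48.3-fold higher in MWA, at 0.28 in SVC, 0.64 in SPA and 6.24 for MWA, and its mitochondrial relative Gpt2 was 6.67-fold higher. Cdo1 and Csad, which make hypotaurine from cysteine on the way to taurine, were 41.5-fold and 13.8-fold higher. Of the carriers of taurine, Slc6a6 was lower and Slc6a13, which also carries GABA, was 28.5-fold higher. The enzymes of creatine synthesis went both ways: Gamt, the last, was 5.63-fold higher and Gatm was 2.20-fold lower, while the creatine carrier Slc6a8 was lower. Prodh, which breaks down proline, was 23.3-fold higher. The transaminases of aspartate were lower in MWA, Got1 8.12-fold and Got2 5.03-fold. Glul, glutamine synthetase, stood at 1.98, 3.23 and 5.47 and was 4.73-fold higher in MWA than SPA. Cdo1 was also 4.79-fold higher in SPA than SVC.

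The cytosolic aminoacyl-tRNA synthetases, which load tRNAs for protein synthesis, were lower in MWA as a group. Of 20, 13 were lower in MWA than SPA by 2-fold or more, against 17.9% of all genes, and 0 were higher, against 15.8%, with a median log2 ratio of -1.25. At 5-fold 1 of 20 was lower, Iars, near the 3.98% of all genes. Between SPA and SVC 0 of 20 passed 2-fold, near the 3.9% of all genes higher and 3.25% lower. Of 25 genes, Atf4 and targets of its protein, 1 was at least 5-fold higher in MWA than SPA, against 5.49% of all genes, and 4 were lower, against 3.98%. The lower genes were Mthfd2 at 16.7-fold and Shmt2 at 6.90-fold, of mitochondrial one-carbon metabolism, the pseudokinase Trib3 at 11.8-fold and the stress hormone Gdf15 at 6.48-fold. The hormone Fgf21 was at least 7.97-fold higher, and Atf4 itself differed 1.03-fold. The median log2 ratio of this list was 0.09.

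Of 25 genes of mTORC1 and amino acid sensing with a ratio, 1 was at least 5-fold higher in MWA and 1 lower, shares close to the 5.49% and 3.98% of all genes. Rragd, a Rag GTPase that brings mTORC1 to the lysosome, stood at -0.34, 1.14 and -3.94 and was 33.8-fold lower in MWA than SPA, while the arginine sensor Castor1 (Gatsl3 on the array) was 5.15-fold higher. Of 12 carriers of amino acids and peptides from other families with a ratio, 0 were at least 5-fold higher, against 5.49% of all genes, and 2 were lower, against 3.98%, the lysosomal carrier Slc15a3 at 14.8-fold and the mitochondrial aspartate/glutamate carrier Slc25a13 at 14.3-fold.

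**Figure D5:**
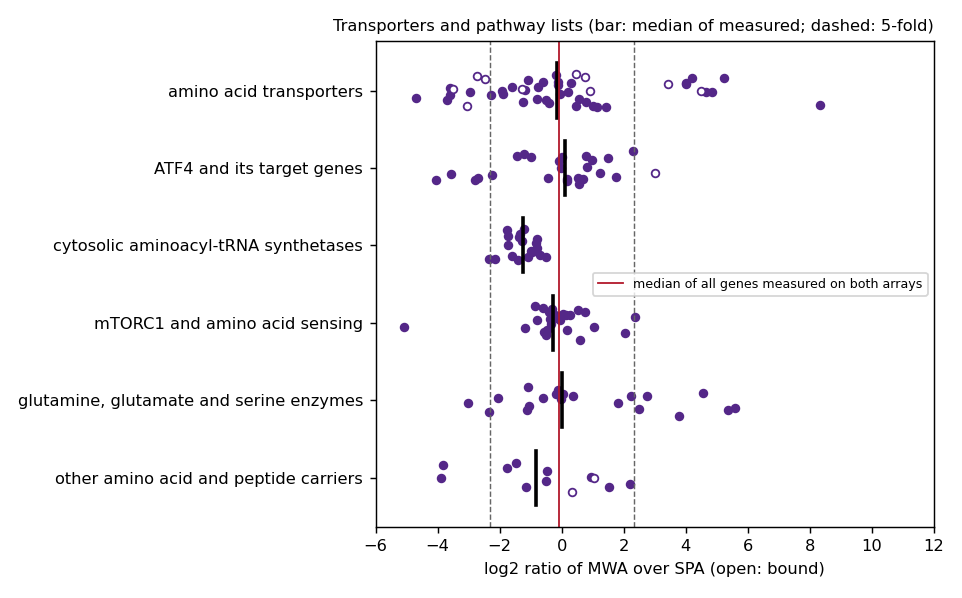
Log2 ratio of MWA over SPA for each gene (point) of the transporters and of 5 lists of related genes, with the median of the genes measured on both arrays as a black bar, bounds as open points, dashed lines at 5-fold and the median of all genes in red. The transporters spread from -4.71 to 8.33 around a median of -0.16, whereas all 20 synthetases lie below 0, with a median of -1.25.

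Markers of the cells that each fraction could hold differed between the arrays as well. The summed level of 8 adipocyte markers was 2.67 in SVC, 6.16 in SPA and 11.57 for MWA, and Adipoq and Plin1 were not well above background in SVC. All 5 endothelial markers and all 5 erythrocyte markers were higher in MWA than SPA by 5-fold or more, with summed levels of 0.44 and 4.42 for the first and -1.49 and 9.49 for the second. All 5 proliferation markers were at least 2-fold lower in MWA, with summed levels of 5.45 in SPA and 2.44 in MWA. Macrophage markers summed to 9.05 in SVC, 9.19 in SPA and 7.51 in MWA, but did not move as 1 group: 2 of 7 were past 5-fold higher in MWA than SPA, C1qa at 11.3-fold and Cd163, not well above background in SPA, at at least 114-fold, and 1 of 7, Cd68, was 8.58-fold lower. C1qa was also 9.12-fold lower in SPA than SVC. Smooth muscle markers summed to 9.50, 8.36 and 5.50. For 3 of these 4 the MWA level lay more than 2-fold below that of SPA, while Myh11 went the other way, by 2.09-fold. All 5 mesothelial markers were at least 5-fold lower in SPA than SVC and summed to 4.34, 1.75 and 4.13. Slc1a6 and Slc38a4 were also at least 5-fold lower in SPA than SVC. In MWA these 2 transporters were lower than in SPA, whereas 4 of the 5 markers were at least 5-fold higher. Progenitor and fibroblast markers summed to 8.05, 6.99 and 8.54 and were all well above background on the 3 arrays. Set against SPA, these 6 went both ways. The MWA level of Dcn (3.90-fold) and Col3a1 (7.32-fold) was above it, and that of Pdgfra (4.14-fold) and Pdgfrb (2.68-fold) below it. Col1a1 and Thy1 stayed within 2-fold. Lymphocyte markers summed to 1.80, 1.90 and 2.09, with 1, 2 and 3 of 4 well above background. The part of these cells in the transporter values was not tested, and in such bulk samples fewer cells of a type and less RNA per cell cannot be told apart.

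Each array held 62976 spots, of which 59305 were not controls. The scanner software set 58.6% (SVC), 61.4% (SPA) and 61.3% (MWA) of these well above background. Among 300 probes spotted 10 times, the median SD of the log2 signal within an array was 0.04 to 0.05 over those well above background, which covers the spots and not the cells or the RNA.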

How the data were processed

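SVC, SPA and MWA were each measured on 1 Agilent SurePrint G3 mouse array. The authors deposited, for each spot, the background-subtracted intensity from Agilent Feature Extraction (10.7.3.1), and a value table whose entries are a ratio of that intensity to 1 constant per array. GeneSpring GX was used in the study, and its normalization is not given in the sources used here.

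Here, control spots were dropped, as were spots flagged as outliers (75 for SVC, 98 for SPA, 129 for MWA). The intensity was scaled to the 75th percentile of each array (430, 439 and 366) on the log2 scale, spots of the same probe were averaged, and of several probes the one with the highest level on average stood for the gene. A bound was set against the higher of the dim probe's own signal and the lowest signal of a probe well above background on that array. Background shares were taken over all genes well above background on at least 1 array of a comparison. Gene names are those of the arrays. Of the 101 transporter probes, 81 carried a RefSeq accession, of which 80 were found under the same name in the RefSeq table of GRCm38.p6.

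Every transporter could be named, and those at least 5-fold apart were given in full. The members and the gene lists were chosen with earlier results of these data known. The values were recomputed under 9 other settings, and 1 more, using only probes with a RefSeq accession, was chosen after seeing the data. With 1 array in each group no test was run, and precision is limited by there being 3 arrays. The method was tested on simulated data. Normexp, with an offset of 50, came from limma 3.58.1 (R 4.3.3). All else was computed in Python 3.11.15, using pandas 2.3.3 and numpy 2.4.6, and drawn in matplotlib 3.10.9.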

Additional observations from a re-analysis of the deposited data

How the results depend on the processing

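Of the 20 ratios past 5-fold between neighbouring fractions, 10 kept their call in every alternative that gave a value, 10 lost it in some, and 0 changed direction. The offset of 50 in the normexp setting shrinks ratios of dim probes by itself, and the cause of the other losses was not tested. With the normexp correction, the transporters at least 5-fold lower in MWA than SPA numbered 4 in place of 9. Against SVC, those 5-fold higher in MWA numbered 5 in place of 9 and those lower 3 in place of 8. In SPA against SVC, normexp left 1 of 2 genes lower at 5-fold, and 3 of 5 higher and 2 of 4 lower at 2-fold. Where both arrays had to be well above background, fewer genes are tested: 5 of 9 were lower in MWA than SPA, 4 of 8 lower in MWA than SVC, and 6 of 10 higher at 2-fold in MWA than SVC. A median over each gene's probes left 1 of 2 lower in SPA than SVC. Without a filter on dim probes, 1 transporter in place of 0 was at least 5-fold higher in SPA than SVC, Slc7a10, with a log2 ratio of 2.72. All other counts were within 1.5 times of those reported. Without that filter, the median of all genes for MWA over SVC moved from -0.07 to -0.19. No paired analysis was possible because each group has 1 array. Dim probes limit what can be read: probes well above background went down to -4.95 (SVC), -5.14 (SPA) and -5.15 (MWA).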
